A study of Mus musculus with 11 samples.

Results

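The regions described are those at 7 mouse genes that write, maintain or remove DNA methylation, namely Dnmt1, Dnmt3a, Dnmt3b, Dnmt3l, Uhrf1, Tet1 and Tet2, in an ATAC-seq study of embryonic stem cells. With earlier results of these data known, a window of 35 to 120 kb was set around each gene (GRCm38). Every open chromatin region that starts in it was taken by position alone. This gave 104 of the 248336 regions counted in the study, with 10 at Dnmt1, 24 at Dnmt3a, 10 at Dnmt3b, 7 at Dnmt3l, 6 at Uhrf1, 28 at Tet1 and 19 at Tet2. Of the 104 regions, 14 lay over the start site of a protein-coding transcript, 15 over other coding exons, 6 over untranslated or non-coding exons, 58 in introns and 11 between genes. The windows also take in pieces of neighbouring genes, so that 12 of the 14 start site regions belong to the 7 genes and the other two to Icosl and Kdm4b.

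Accessibility was measured in 11 libraries from 4 embryonic stem cell lines. The line B6 5-1 is C57BL/6J (B6, 3 libraries) and the line D2 5-5 is DBA/2J (D2, 3 libraries). The line QJ 6-1 comes from the congenic strain B6.D2-(rs30079041-rs51756099)/Bakr, in which the C57BL/6J genome carries an interval of chromosome 13 from DBA/2J (B6-13D2, 2 libraries). The line XE 2-4 comes from the congenic strain D2.B6-(rs29224292-rs13469455)/Bakr, in which the DBA/2J genome carries an interval of chromosome 13 from C57BL/6J (D2-13B6, 3 libraries). The sample labels name different markers at both ends for the intervals of the congenic strains, and the series text gives the D2-13B6 interval another distal marker than its sample labels do. All lines were grown in high-glucose medium with 15% fetal bovine serum, LIF, the MEK inhibitor PD0325901 at 1 μM and the GSK3 inhibitor CHIR99021 at 3 μM, and no line was grown without the inhibitors. The libraries of a line are labelled technical replicates and each genotype is a single line, so that p-values measure only the spread between libraries. Genotype and cell line cannot be told apart. None of the 7 genes lies on chromosome 13. In D2-13B6 against B6 the median log2 fold change over all regions of a chromosome was -0.50 on chromosome 13 and 0.15 on chromosome 11, and -0.18 to -0.12 on the chromosomes of the 7 genes. In the interaction described below it was -0.36 on chromosome 13 and 0.28 on chromosome 11. These chromosomes enter the shares over all regions that are given beside the members' counts.

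DNA methyltransferases add a methyl group to cytosine, mostly where it is followed by guanine (CpG). DNMT1 copies the pattern onto newly made DNA and is brought to hemimethylated sites by UHRF1, while DNMT3A and DNMT3B set new methylation, with DNMT3L as their cofactor without catalytic activity. The TET proteins oxidise methylcytosine and so start its removal, and TET1 and TET2 are the forms that embryonic stem cells mainly use. In such cells, inhibition of MEK and GSK3 is known for lowering methylation across the genome, and the genes of this machinery are among those that distinguish naive from more advanced pluripotent states. ATAC-seq reads where the transposase Tn5 can reach the DNA, so the values below are openness of chromatin at these genes, not their RNA, their protein or methylation itself.

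The stretches of reference sequence below (RefSeq GRCm38, + strand) come from 6 regions on which the results turn and lie outside annotated exons. In the stretches at Dnmt3a chr12:3854486-3854685 and chr12:3862335-3862534 and at Tet1 chr10:62851176-62851375, capitals mark a match to the letters TGANTCA, which the AP-1 family of transcription factors binds. These stretches come from intronic regions that were more open in D2-13B6 than in B6. Each was placed on such a match, so that its presence there is no result. The less open Tet1 region from 62901729 to 62903688 also holds these letters, as TGAATCA at 62902915, beyond the end of its printed stretch. In the other stretches capitals mark CG. They lie at Tet2 chr3:133544391-133544590 (start site), Tet2 chr3:133462363-133462562 (beyond the end of the gene) and Tet1 chr10:62902608-62902807 (upstream of the main start but inside the annotated gene). They hold 40, 4 and 0 CG in 200 bases and are shown for the difference in composition between a start site that was more open in D2-13B6 and regions that were less open. The contrast is smaller over the whole regions, which hold 157 CG in 2866 bases, 13 in 1226 and 22 in 1959.
Dnmt3a intron at chr12:3854486-3854685: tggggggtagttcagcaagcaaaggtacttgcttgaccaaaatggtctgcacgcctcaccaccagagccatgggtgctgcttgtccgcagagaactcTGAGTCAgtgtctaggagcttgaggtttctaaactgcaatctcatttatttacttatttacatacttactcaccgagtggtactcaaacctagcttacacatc
Dnmt3a intron at chr12:3862335-3862534: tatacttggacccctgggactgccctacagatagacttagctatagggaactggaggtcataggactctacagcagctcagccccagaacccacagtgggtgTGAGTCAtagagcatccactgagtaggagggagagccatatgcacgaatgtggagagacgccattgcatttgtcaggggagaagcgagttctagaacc
Tet1 intron at chr10:62851176-62851375: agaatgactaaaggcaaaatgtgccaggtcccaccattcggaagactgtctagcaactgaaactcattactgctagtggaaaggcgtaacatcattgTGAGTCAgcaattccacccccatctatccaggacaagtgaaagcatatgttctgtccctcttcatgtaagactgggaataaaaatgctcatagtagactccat
Tet2 start site at chr3:133544391-133544590: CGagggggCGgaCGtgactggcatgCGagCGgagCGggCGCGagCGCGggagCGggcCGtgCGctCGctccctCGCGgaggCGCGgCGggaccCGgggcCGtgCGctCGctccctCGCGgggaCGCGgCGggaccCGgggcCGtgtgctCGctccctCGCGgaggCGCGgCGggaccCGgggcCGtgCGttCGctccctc
Tet2 downstream at chr3:133462363-133462562: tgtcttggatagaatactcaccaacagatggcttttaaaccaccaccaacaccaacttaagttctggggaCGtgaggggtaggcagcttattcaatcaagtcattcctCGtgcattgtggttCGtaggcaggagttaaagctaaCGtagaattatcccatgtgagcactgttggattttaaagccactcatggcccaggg
Tet1 upstream at chr10:62902608-62902807: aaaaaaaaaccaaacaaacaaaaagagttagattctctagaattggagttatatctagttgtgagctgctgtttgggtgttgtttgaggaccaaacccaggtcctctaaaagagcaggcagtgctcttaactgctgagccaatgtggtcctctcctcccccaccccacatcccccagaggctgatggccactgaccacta

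Total counts in regions were 15198496 to 27293140 in the B6 libraries, 18807653 to 20022534 in B6-13D2, 29172484 to 43042955 in D2-13B6 and 34945034 to 39770267 in D2. The libraries also differed in how counts were spread. Regions over start sites took 27.0% to 28.4% of counts in B6, 27.8% to 28.1% in B6-13D2, 31.0% to 36.1% in D2-13B6 and 31.8% to 34.6% in D2. The cell type label was checked at start site regions of markers. All 10 embryonic stem cell markers had an open start site, and their summed level was 338 to 356 normalised CPM (counts scaled to a common library size) in B6, 343 to 358 in B6-13D2, 326 to 361 in D2 and 231 to 280 in D2-13B6, where 8 of the 10 were lower than in B6 and only Klf4 was higher. Of 7 fibroblast or feeder markers, 6 had a region (Col3a1 had none), with a summed level of 49.5 to 56.9 CPM in B6, 43.5 to 48.3 in B6-13D2, 68.0 to 69.8 in D2 and 98.4 to 133 in D2-13B6, where 4 of the 6 were higher than in B6. Postn, a marker of that list, was near closed in every line, at 1.21 CPM in B6 and 1.17 in D2-13B6. Over all start site regions 60.2% were called higher and 9.2% lower in D2-13B6 than in B6. The 4 of 6 fibroblast markers called higher are near the first share. The 8 of 10 stem cell markers called lower are above the second. The other lists went both ways or down, with 2 higher and 2 lower of 5 for primitive endoderm and 1 and 1 of 4 for trophoblast. For neural and primitive streak markers it was 0 and 1 of 3 each. The stem cell and fibroblast values move with D2-13B6 in the results below, and their part in those results was not tested. In bulk libraries such as these, fewer cells of a type and less signal per cell cannot be told apart.

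The D2 interval of chromosome 13 on the B6 background, B6-13D2 against B6, left the 7 genes without a called difference. Of the 104 regions none passed an adjusted p of 0.05 in edgeR's quasi-likelihood test, where 0.474% of all 246840 tested regions did (0.139% higher and 0.335% lower). At an unadjusted p under 0.05 there were 2, and DESeq2 also called 0, with 2 at that level. The log2 fold changes ran from -0.94 to 0.65 with a median of 0.07, beside -0.01 over all regions. The lowest p was at the Dnmt3a intron region from 3854430 to 3854813 on chromosome 12, with 2.26, 1.59 and 2.19 CPM in B6 and 1.46 and 0.648 CPM in B6-13D2. All B6-13D2 values lay under all B6 values there, but the log2 fold change of -0.94 (SE 0.31) gave an edgeR adjusted p of 0.254. With 2 libraries against 3, the median standard error over the members was 0.23 on the log2 scale, so that small differences could not be detected. All B6-13D2 libraries lay above all B6 libraries in 21 members (12.7% of all regions) and below them in 5 (13.4%).

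The other lines differed from B6 at many of these regions, most of all D2-13B6. In D2-13B6 against B6, 55 of the 104 regions were called (41.7% of all tested regions were), 13 higher (21.6% of all) and 42 lower (20.1% of all), and the median log2 fold change was -0.43 beside -0.13 over all regions. Among the 14 start site regions 4 were higher and 4 lower, where 60.2% and 9.2% of all start site regions were. Among the 90 others 9 were higher and 38 lower, where 18.8% and 20.9% of all other regions were. In D2 against B6 there were 13 (22.5% of all), 4 higher (13.7%) and 9 lower (8.8%), with a median of -0.11 beside -0.01. In D2 against D2-13B6 there were 32 (23.7% of all), 24 higher (8.53%) and 8 lower (15.2%), with a median of 0.28 beside 0.04. These 3 comparisons share libraries pairwise, so their calls are not independent of each other. Without overlap of libraries, D2-13B6 lay above B6 in 17 members (23.3% of all regions) and below it in 44 (25.6%), D2 above B6 in 12 (20.6%) and below it in 26 (17.7%), and D2 above D2-13B6 in 32 (16.2%) and below it in 10 (18.6%). D2-13B6 had the lowest mean of the 4 lines in 73 of the 104 regions and in 39.2% of all regions tested, and the highest in 20 regions and in 30.8% of all.

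**Figure D1:**
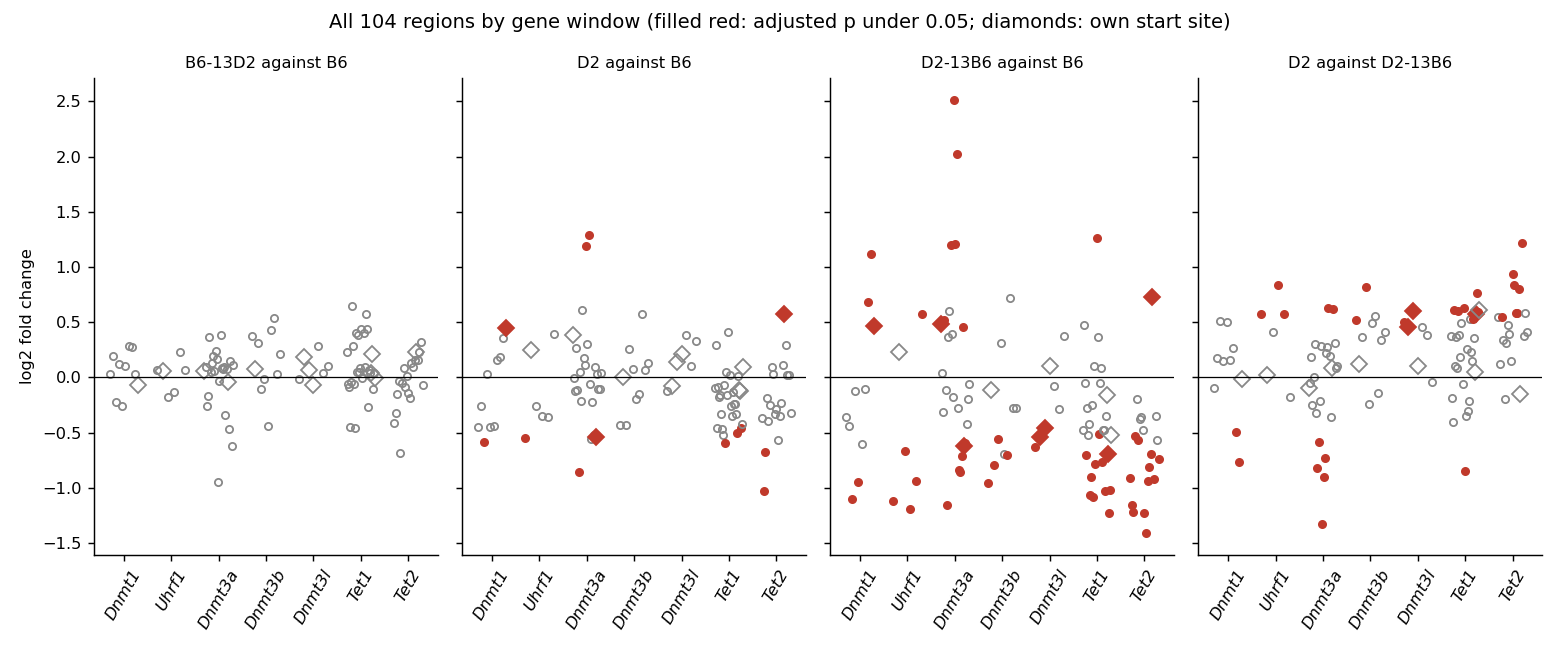
Log2 fold change (vertical axis) of each of the 104 regions, grouped by gene window on the horizontal axis and placed in genomic order within it, for 4 comparisons; red filled symbols passed an adjusted p of 0.05 and diamonds are regions over the gene's own start site. None is red for B6-13D2 against B6, and 42 of the 55 red symbols lie below 0 for D2-13B6 against B6.

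How many regions were higher or lower depended on the scaling of the libraries. With total counts in place of TMM, the median of all regions moved from -0.13 to -0.43 in D2-13B6 against B6, from -0.01 to -0.14 in D2 against B6 and from 0.04 to 0.21 in D2 against D2-13B6. The calls among the members then became 9 higher and 66 lower, 5 and 22, and 38 and 5. Over all 246840 tested regions the calls in either direction rose too. They went from 102971 to 127029, from 55588 to 60417 and from 58591 to 68706. With size factors of the RLE method, D2 against D2-13B6 gave 14 higher and 8 lower, with 56198 calls over all regions. With offsets fitted to abundance (loess), an alternative added after seeing the data, D2 against B6 gave 3 higher and 17 lower. Over all regions it gave 56629 calls.

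Among the maintenance genes, Dnmt1 (ENSMUSG00000004099.16, chr9:20907209-20959888, - strand) was the more open at its start in both lines of DBA/2J background. The region over its start site, from 20951218 to 20953810, had 24.1, 23.3 and 25.6 CPM in B6, 22.4 and 23.9 in B6-13D2, 34.8, 38.6 and 27.3 in D2-13B6 and 34.0, 32.2 and 33.4 in D2. Every D2 and D2-13B6 library lay above every B6 and B6-13D2 library. The log2 fold change was 0.47 (SE 0.17, adjusted p = 0.0180 by edgeR) in D2-13B6 and 0.45 (SE 0.17, adjusted p = 0.0391 by edgeR) in D2, each against B6. Most start site regions of the genome were likewise called higher in D2-13B6 than in B6, at the 60.2% given. Neither call held under all alternatives. In D2-13B6 the value was 0.16 with total counts and -0.07 with loess offsets, both not called, and the call was also lost without B6 replicate 1, B6 replicate 2 or D2-13B6 replicate 1. In D2 it was lost with RLE, with loess offsets (0.09) and without each of several libraries.

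Inside Dnmt1, the clearest difference was in an intron from 20945946 to 20946826, with 5.42, 4.33 and 3.85 CPM in B6, 4.18 and 5.18 in B6-13D2, 10.4, 10.7 and 8.56 in D2-13B6 and 5.06, 6.16 and 6.30 in D2. D2-13B6 stood above the other 3 lines, which overlapped or nearly so. The log2 fold change was 1.12 against B6 (SE 0.18, adjusted p = 5.09e-07 by edgeR), and D2 against D2-13B6 gave -0.76 (SE 0.17, adjusted p = 4.35e-04 by edgeR). Of the 9 Dnmt1 regions without a start site, 2 were called higher and 2 lower in D2-13B6 than in B6, with a median of -0.35. This is near the shares over all regions without a start site, of which 18.8% were higher and 20.9% lower.

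Uhrf1 (ENSMUSG00000001228.14, chr17:56303321-56323486, + strand), whose product reads hemimethylated DNA for DNMT1, had a start site region from 56302241 to 56305387 that did not differ by the test. It had 36.1, 32.1 and 34.5 CPM in B6, 38.2 and 33.1 in B6-13D2, 41.0, 48.3 and 31.2 in D2-13B6 and 45.4, 36.3 and 40.7 in D2. The D2-13B6 libraries overlapped those of B6, and the D2 libraries lay just above them. D2-13B6 against B6 gave 0.23 (SE 0.17, adjusted p = 0.288 by edgeR) and D2 against B6 0.25 (SE 0.17, adjusted p = 0.320 by edgeR). The sign for D2-13B6 turned with the scaling, at -0.09 with total counts and at a called -0.39 with loess offsets. The 4 regions of the window without a start site were all called lower in D2-13B6 than in B6 (20.9% of all such regions were), by -1.19 to -0.66 on the log2 scale. All 4 stayed called lower with RLE, total counts, loess offsets and DESeq2. The lowest p among them was at a region from 56297800 to 56299310, over a coding exon of the neighbouring Arrdc5, with 6.45, 6.46 and 6.70 CPM in B6 against 3.35, 2.70 and 2.96 in D2-13B6 and 4.75, 4.82 and 3.87 in D2. Its log2 fold change was -1.12 in D2-13B6 (SE 0.19, adjusted p = 1.02e-06 by edgeR) and -0.54 in D2 (SE 0.18, adjusted p = 0.0218 by edgeR), the latter lost without any B6 library or without D2 replicate 3.

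**Figure D2:**
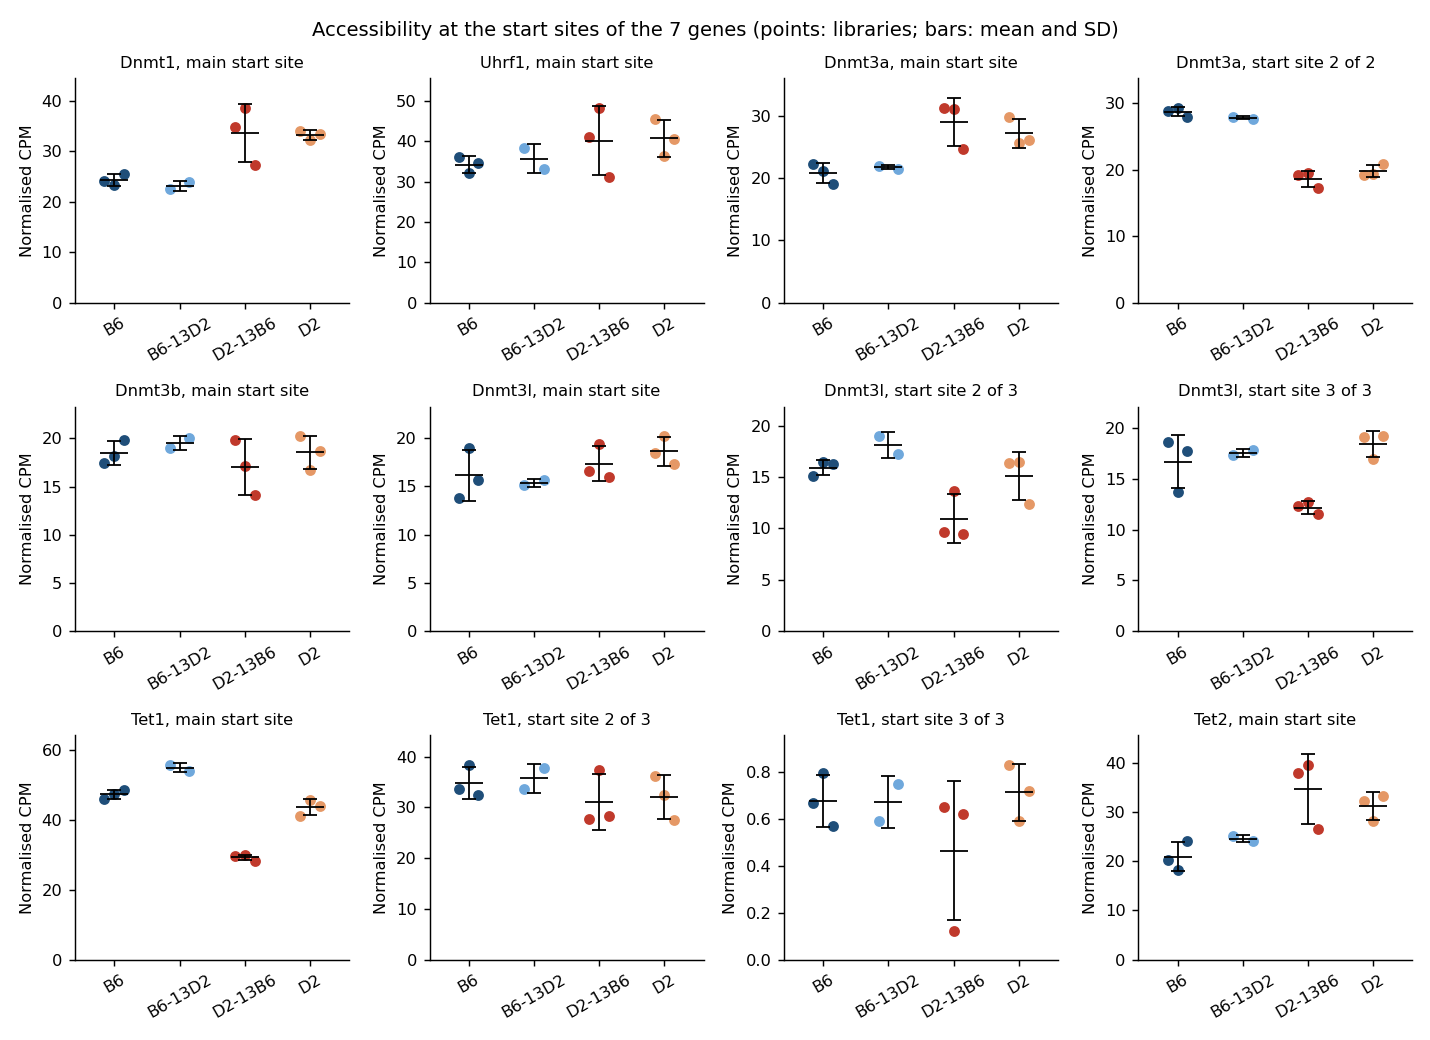
Normalised CPM (vertical axis, from 0) of the 12 regions over start sites of the 7 genes in the 4 lines (horizontal axis); points are libraries and bars the mean and SD. Dnmt1, the main Dnmt3a start and Tet2 lie higher in D2-13B6 and D2 than in B6, while the second Dnmt3a start lies lower in both and the main Tet1 start lies low in D2-13B6.

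Of the genes for new methylation, Dnmt3a (ENSMUSG00000020661.15, chr12:3806007-3914443, + strand) showed start sites that moved in opposite directions. The gene is known to make a long protein from an upstream promoter and a shorter one from an internal promoter, the latter being the main form in embryonic stem cells. The upstream start site region, from 3805798 to 3809315, had 22.3, 21.2 and 19.1 CPM in B6, 22.0 and 21.5 in B6-13D2, 31.4, 31.2 and 24.7 in D2-13B6 and 29.9, 25.7 and 26.2 in D2. The internal start site region, from 3889209 to 3893026, had 28.8, 29.3 and 28.0 CPM in B6, 28.0 and 27.7 in B6-13D2, 19.2, 19.5 and 17.3 in D2-13B6 and 19.2, 19.3 and 20.9 in D2. In both regions the B6 and B6-13D2 libraries lay on one side and the D2 and D2-13B6 libraries on the other, without overlap.

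At the internal start the log2 fold change was -0.62 in D2-13B6 (SE 0.16, adjusted p = 0.00115 by edgeR) and -0.54 in D2 (SE 0.16, adjusted p = 0.00978 by edgeR), each against B6. Both calls held with RLE, total counts, loess offsets and DESeq2, and the D2 call was lost without D2 replicate 1. At the upstream start it was 0.48 in D2-13B6 (SE 0.16, adjusted p = 0.0144 by edgeR) and 0.39 in D2, which did not pass (SE 0.16, adjusted p = 0.0839 by edgeR). The upstream call was lost with total counts (0.18), with loess offsets (-0.00), without B6 replicate 3 and without D2-13B6 replicate 1.

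The ratio of counts at the internal start to those at the upstream start is formed within a library and so does not depend on scaling. It was 1.29, 1.39 and 1.47 in B6, 1.27 and 1.29 in B6-13D2, 0.611, 0.625 and 0.702 in D2-13B6 and 0.643, 0.753 and 0.797 in D2. The internal start held more counts than the upstream start in every library with the B6 background and fewer in every library with the D2 background. The upstream region is 70.5% G and C and the internal one 54.6%; the part of composition in this ratio was not tested. The reads were aligned to a reference of the B6 genome, and what that does to counts in the D2 background was not tested either.

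**Figure D3:**
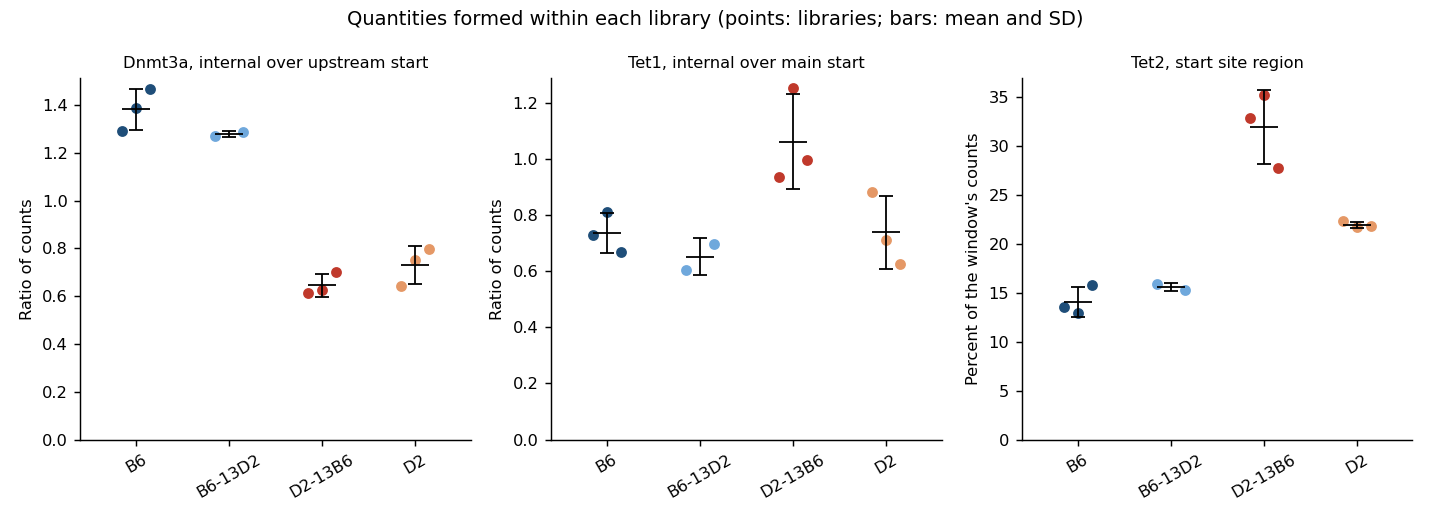
Quantities formed within each library, by line (horizontal axis), as points per library with mean and SD: the ratio of counts of the internal to the upstream Dnmt3a start, the ratio of the internal to the main Tet1 start, and the Tet2 start site region in percent of the counts of its window. The Dnmt3a ratio lies above 1 in B6 and B6-13D2 and below 1 in D2-13B6 and D2, and the Tet2 percentage is lowest in B6 and highest in D2-13B6.

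The largest differences of any member lay between the Dnmt3a start sites, in the intron regions whose sequence is given above. The region from 3854430 to 3854813 had 2.26, 1.59 and 2.19 CPM in B6, 1.46 and 0.648 in B6-13D2, 12.5, 13.5 and 9.01 in D2-13B6 and 3.58, 5.25 and 5.21 in D2. D2-13B6 was higher than B6 by 2.51 (SE 0.21, adjusted p = 6.74e-16 by edgeR) and D2 by 1.19 (SE 0.22, adjusted p = 2.45e-05 by edgeR) on the log2 scale, and D2 was lower than D2-13B6 by -1.32 (SE 0.19, adjusted p = 1.39e-07 by edgeR). The 4 lines followed the order D2-13B6, D2, B6 and B6-13D2 with no overlap between neighbours. The region from 3862259 to 3862534 had 1.53, 1.10 and 1.66 CPM in B6, 1.96 and 1.84 in B6-13D2, 5.92, 6.48 and 5.37 in D2-13B6 and 3.63, 4.20 and 2.87 in D2. Here too no neighbouring lines overlapped, and it exceeded B6 on the log2 scale by 2.02 in D2-13B6 (SE 0.22, adjusted p = 6.88e-12 by edgeR) and, to a lesser degree, in D2 by 1.29 (SE 0.23, adjusted p = 1.06e-05 by edgeR). These calls held under every alternative run, a minimum fold of 1.5 included, except that D2 against D2-13B6 in the second region (-0.73) did not pass the minimum fold. The region from 3829066 to 3830005, in an intron nearer the upstream start, went the other way, with 4.89, 5.37 and 4.38 CPM in B6, 1.84, 1.73 and 3.03 in D2-13B6 and 2.44, 3.13 and 2.49 in D2. Its log2 fold change against B6 was -1.16 in D2-13B6 (SE 0.21, adjusted p = 6.84e-06 by edgeR) and -0.85 in D2 (SE 0.21, adjusted p = 0.00128 by edgeR). Over the 22 Dnmt3a regions without a start site, 6 were called higher and 5 lower in D2-13B6 than in B6, with a median of -0.09. Of all regions without a start site 18.8% were higher and 20.9% lower, so that these counts are not far from those shares.

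**Figure D4:**
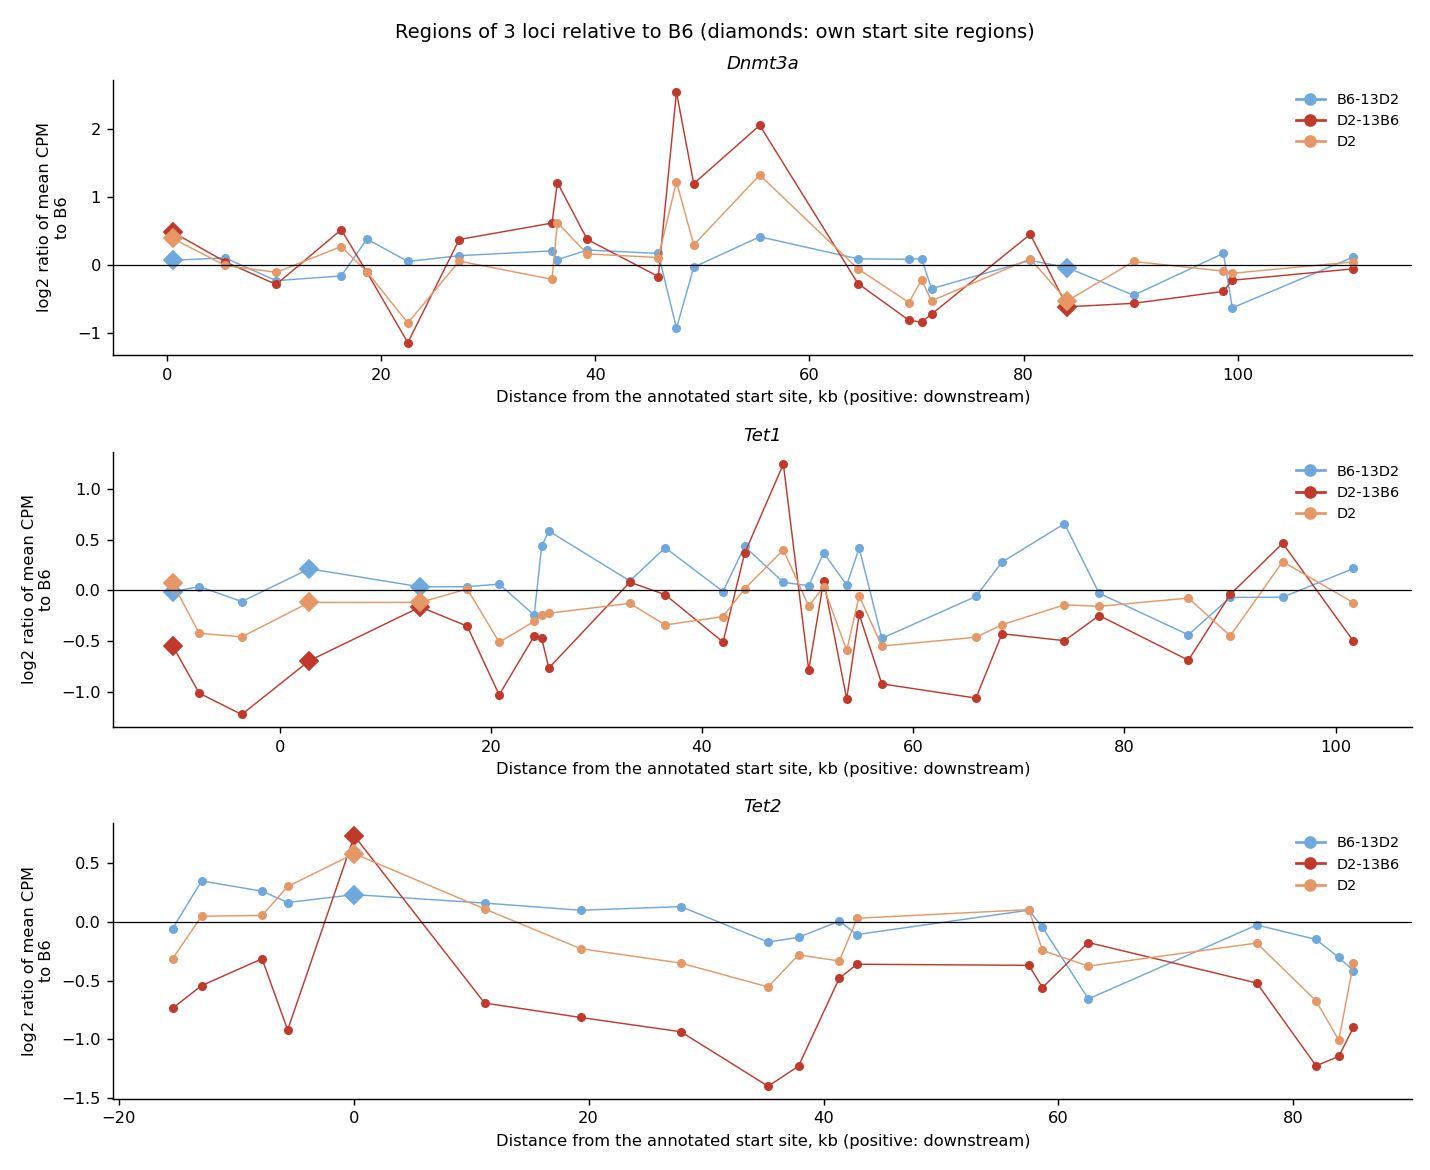
Log2 ratio of the mean normalised CPM to that of B6 (vertical axis) for each region at Dnmt3a, Tet1 and Tet2 against its distance from an annotated start site in kb (horizontal axis, downstream positive); colours are B6-13D2, D2-13B6 and D2, and diamonds are start site regions. D2-13B6 reaches its highest ratios in the middle of Dnmt3a and lies below 0 along Tet2 except at the start site.

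Dnmt3b (ENSMUSG00000027478.15, chr2:153649450-153687730, + strand), the other methyltransferase for new methylation, was level at its start. The region from 153648717 to 153650893 had 17.5, 18.2 and 19.8 CPM in B6, 19 and 20 in B6-13D2, 19.9, 17.1 and 14.1 in D2-13B6 and 20.2, 16.8 and 18.7 in D2, with overlap between B6, D2-13B6 and D2. The log2 fold change against B6 was -0.12 in D2-13B6 (SE 0.17, adjusted p = 0.614 by edgeR) and 0.01 in D2 (SE 0.17, adjusted p = 0.987 by edgeR), although D2-13B6 was called lower with total counts (-0.41) and with loess offsets (-0.50). Upstream of the gene, the region from 153642305 to 153643607 had 11.1, 12.9 and 11.3 CPM in B6, 14.8 and 15.7 in B6-13D2, 5.09, 7.85 and 5.26 in D2-13B6 and 9.94, 8.73 and 7.45 in D2. D2-13B6 was lower than B6 there by -0.96 (SE 0.18, adjusted p = 6.96e-06 by edgeR), without overlap. In the 9 Dnmt3b regions without a start site, 4 were called lower and none higher in D2-13B6 than in B6, with 6 at an unadjusted p under 0.05. Of all regions without a start site 20.9% were lower and 18.8% higher. DESeq2 called 3 of the Dnmt3b regions lower and none higher, and RLE and loess offsets each called 1 higher.

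Dnmt3l (ENSMUSG00000000730.13, chr10:78041947-78063622, + strand) has 3 start site regions, of which the upstream pair was less open in D2-13B6. The region from 78042264 to 78044231, which also covers the start of the neighbouring Aire, had 15.1, 16.4 and 16.2 CPM in B6, 19 and 17.2 in B6-13D2, 9.69, 13.7 and 9.49 in D2-13B6 and 16.4, 16.5 and 12.3 in D2. The region from 78047988 to 78050735 had 18.6, 13.7 and 17.8 CPM in B6, 17.3 and 17.9 in B6-13D2, 12.3, 12.7 and 11.5 in D2-13B6 and 19.2, 16.9 and 19.2 in D2. D2-13B6 lay below B6 without overlap in both, by -0.54 (SE 0.17, adjusted p = 0.00844 by edgeR) and -0.46 (SE 0.17, adjusted p = 0.0203 by edgeR). The call at 78047988 was lost with RLE and without B6 replicate 1 or 3, that at 78042264 without D2-13B6 replicate 1, and both with the comparison's libraries alone. At 78047988, D2 against D2-13B6 gave 0.60 (SE 0.16, adjusted p = 0.00390 by edgeR). The third start region, from 78054102 to 78057084, had 13.8 to 19 CPM in B6 and 16 to 19.4 in D2-13B6 and was not called (0.11, SE 0.17).

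Of the demethylation genes, Tet1 (ENSMUSG00000047146.17, chr10:62804570-62908996, - strand) was less open around its main start in D2-13B6 than in any other line. The region from 62891903 to 62900715 is 8812 bases wide and covers the start of a protein-coding transcript. It had 46.0, 47.4 and 48.6 CPM in B6, 55.8 and 54.0 in B6-13D2, 29.6, 29.8 and 28.3 in D2-13B6 and 41.1, 45.7 and 44.0 in D2. All D2-13B6 values lay under all others. The log2 fold change was -0.69 for D2-13B6 against B6 (SE 0.16, adjusted p = 3.16e-04 by edgeR), called with every scaling, and 0.58 for D2 against D2-13B6 (SE 0.16, adjusted p = 0.00498 by edgeR), the latter lost with those libraries alone. D2 against B6 was -0.12 (SE 0.16, adjusted p = 0.670 by edgeR). Of the other start regions, the one from 62883732 to 62887874 had 32.5 to 38.4 CPM in B6 and 27.7 to 37.4 in D2-13B6, overlapped, and was not called (-0.16, SE 0.17). The ratio of its counts to those of the main start was 0.668 to 0.811 in B6, 0.604 to 0.697 in B6-13D2, 0.625 to 0.881 in D2 and 0.935 to 1.25 in D2-13B6, which lay above the others without overlap. The start region from 62908996 to 62909540 was nearly closed, at 0.121 to 0.830 CPM over all libraries.

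Further from the start, Tet1 held both lower and higher regions. Upstream of the main start, the region from 62901729 to 62903688 had 11.9, 14.1 and 14.8 CPM in B6, 11.7 and 13.5 in B6-13D2, 5.71, 5.42 and 6.29 in D2-13B6 and 10.6, 8.76 and 10.3 in D2. D2-13B6 was lower than B6 by -1.22 (SE 0.17, adjusted p = 9.76e-09 by edgeR) and D2 was intermediate, at -0.45 against B6 (SE 0.17, adjusted p = 0.0369 by edgeR), a call lost with RLE and without any of 5 libraries in turn. In the intron, the region from 62850665 to 62852166 had 7.09, 10.5 and 10.2 CPM in B6, 9.69 and 9.92 in B6-13D2, 19.2, 27.4 and 19.5 in D2-13B6 and 12.1, 12.7 and 12 in D2. It was higher in D2-13B6 than in B6 by 1.26 (SE 0.18, adjusted p = 9.41e-09 by edgeR), and D2 was lower than D2-13B6 by -0.85 (SE 0.17, adjusted p = 6.27e-05 by edgeR). It was the single Tet1 region called higher against B6, while 11 of the 28 were called lower. Of all regions tested 21.6% were higher and 20.1% lower.

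At Tet2 (ENSMUSG00000040943.12, chr3:133463679-133545139, - strand) the start site was more open and the rest of the locus less open in D2-13B6 than in B6. The start site region, from 133542899 to 133545765, had 20.4, 18.3 and 24.1 CPM in B6, 25.1 and 24.1 in B6-13D2, 38.0, 39.7 and 26.5 in D2-13B6 and 32.3, 28.1 and 33.4 in D2. D2-13B6 and D2 lay above B6, by 0.73 (SE 0.17, adjusted p = 3.12e-04 by edgeR) and 0.58 (SE 0.17, adjusted p = 0.00855 by edgeR). With total counts the D2-13B6 value was 0.42 and still called, and with loess offsets it was 0.20 and not called; the D2 call was also lost with loess offsets (0.23) and without B6 replicate 1 or 2. All 18 other regions had a log2 fold change below 0 in D2-13B6 against B6, from -1.41 to -0.20. Of them 12 were called lower, beside 20.9% of all regions without a start site. With total counts 16 were called lower, with RLE and with DESeq2 10, and with loess offsets 12 with 1 region above 0. The share of 20.9% is that of the main fit, where 102971 of all regions were called in either direction. With total counts 127029 were called, with RLE 97693, with DESeq2 92603 and with loess offsets 101392.

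The region beyond the end of Tet2, from 133461850 to 133463076, had 6.29, 6.04 and 5.56 CPM in B6, 4.87 and 5.88 in B6-13D2, 2.75, 2.42 and 2.48 in D2-13B6 and 3.55, 3.43 and 4.24 in D2. D2-13B6 was below D2 and D2 below B6, with no overlap, at -1.22 (SE 0.20, adjusted p = 2.94e-07 by edgeR) and -0.67 (SE 0.19, adjusted p = 0.00506 by edgeR) against B6. Its neighbour from 133460201 to 133460857 was lower than B6 in both lines, at -1.15 (SE 0.26, adjusted p = 1.61e-04 by edgeR) and -1.03 (SE 0.25, adjusted p = 0.00137 by edgeR). The widest Tet2 intron region named, from 133531494 to 133534979, had 25.1, 25.4 and 24.6 CPM in B6 and 27.5 and 28.4 in B6-13D2. It had 16.4, 17.7 and 12.4 CPM in D2-13B6 and 27.3, 23.0 and 30.6 in D2, so that D2-13B6 stood below the other 3 lines, by -0.69 against B6 (SE 0.17, adjusted p = 5.56e-04 by edgeR).

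Within a library, the start site region took 13.5%, 12.9% and 15.8% of the counts of the Tet2 window in B6, 15.9% and 15.3% in B6-13D2, 32.8%, 35.2% and 27.7% in D2-13B6 and 22.3%, 21.7% and 21.8% in D2. This share does not depend on scaling, and the D2-13B6, D2 and B6 libraries did not overlap. For Dnmt1 the share was 29.8% to 33.6% in B6, 28.9% to 31.0% in B6-13D2, 35.4% to 40.3% in D2-13B6 and 38.8% to 43.8% in D2. At Tet1 it was lower in D2-13B6, at 35.9% to 36.8%, than in B6, at 40.4% to 41.5%. At Uhrf1 it was 30.6% to 35.8% in B6 and 30.4% to 34.7% in D2-13B6, which overlapped. That window also holds the Kdm4b start region, with 1256, 750 and 1158 raw counts in B6 and 2663, 2623 and 1658 in D2-13B6. The Uhrf1 start had 1085, 526 and 788 in B6 and 1578, 1594 and 906 in D2-13B6. The Uhrf1 share therefore depends on the start of another gene, and a share without it was not formed. Of all counts of a library, regions over start sites took 27.0% to 28.4% in B6, 27.8% to 28.1% in B6-13D2, 31.0% to 36.1% in D2-13B6 and 31.8% to 34.6% in D2. The Dnmt1 and Tet2 shares rose in the same lines, and the part of this library-wide difference in them was not tested.

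Where a gene has several start site regions, the one with the highest mean CPM over the 11 libraries was taken as its main one, which for Dnmt3a is the upstream start. Per kilobase of region, which allows genes to be compared, the main start site regions of B6 followed the order Uhrf1 (10.9 CPM per kb), Dnmt1 (9.38), Dnmt3b (8.50), Tet2 (7.30), Dnmt3a (5.92), Dnmt3l (5.42) and Tet1 (5.37). In B6, Uhrf1 lay above Dnmt1 and Tet2 above Dnmt3a without overlap of libraries, and the other neighbours overlapped. In D2-13B6 the order was Dnmt1 (13.0 CPM per kb), Uhrf1 (12.8), Tet2 (12.1), Dnmt3a (8.26), Dnmt3b (7.83), Dnmt3l (5.81) and Tet1 (3.32). There, Tet2 lay above Dnmt3a and Dnmt3l above Tet1 without overlap. The place of Dnmt3a and Tet1 in these orders depended on the start region taken. The internal Dnmt3a start had 7.52 CPM per kb in B6 and 4.89 in D2-13B6, and the Tet1 start at 62883732 had 8.41 and 7.51, against the main Tet1 region of 8812 bases.

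The interaction is the log2 fold change of B6-13D2 against B6 minus that of D2 against D2-13B6. Since the labels give the congenic strains intervals with different end markers, it does not compare one and the same interval on both backgrounds. It was called in 8 of the 104 regions (6.54% of all regions tested), 2 higher (4.55% of all) and 6 lower (1.99% of all). With RLE there were 3 higher and 2 lower, and with total counts 2 higher and 15 lower. Over all 246840 tested regions 16225 were called with RLE and 19406 with total counts, beside 16142 in the main fit. All 8 lay outside start sites. The Tet2 intron region from 133505965 to 133507073 had 5.19, 4.33 and 5.73 CPM in B6, 4.59 and 4.68 in B6-13D2, 2.60, 2.06 and 1.86 in D2-13B6 and 4.31, 3.72 and 4.53 in D2, with an interaction of -1.08 (SE 0.30, adjusted p = 0.0196 by edgeR). The Tet2 region from 133549597 to 133550412, in an intron of the overlapping transcript Gm42567, had 2.66, 2.50 and 2.85 CPM in B6, 2.59 and 3.39 in B6-13D2, 1.45, 1.33 and 1.44 in D2-13B6 and 3.89, 2.73 and 3.24 in D2, with an interaction of -1.06 (SE 0.34, adjusted p = 0.0451 by edgeR). In both, D2-13B6 stood below the other 3 lines without overlap. The number of calls rested on single libraries. It fell to 0 without B6-13D2 replicate 2 (22 at an unadjusted p under 0.05) and without D2 replicate 1 (21), and rose to 14 without D2-13B6 replicate 3, while the sign of each of the 8 was kept in the 17 alternatives other than the minimum fold.

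**Figure D5:**
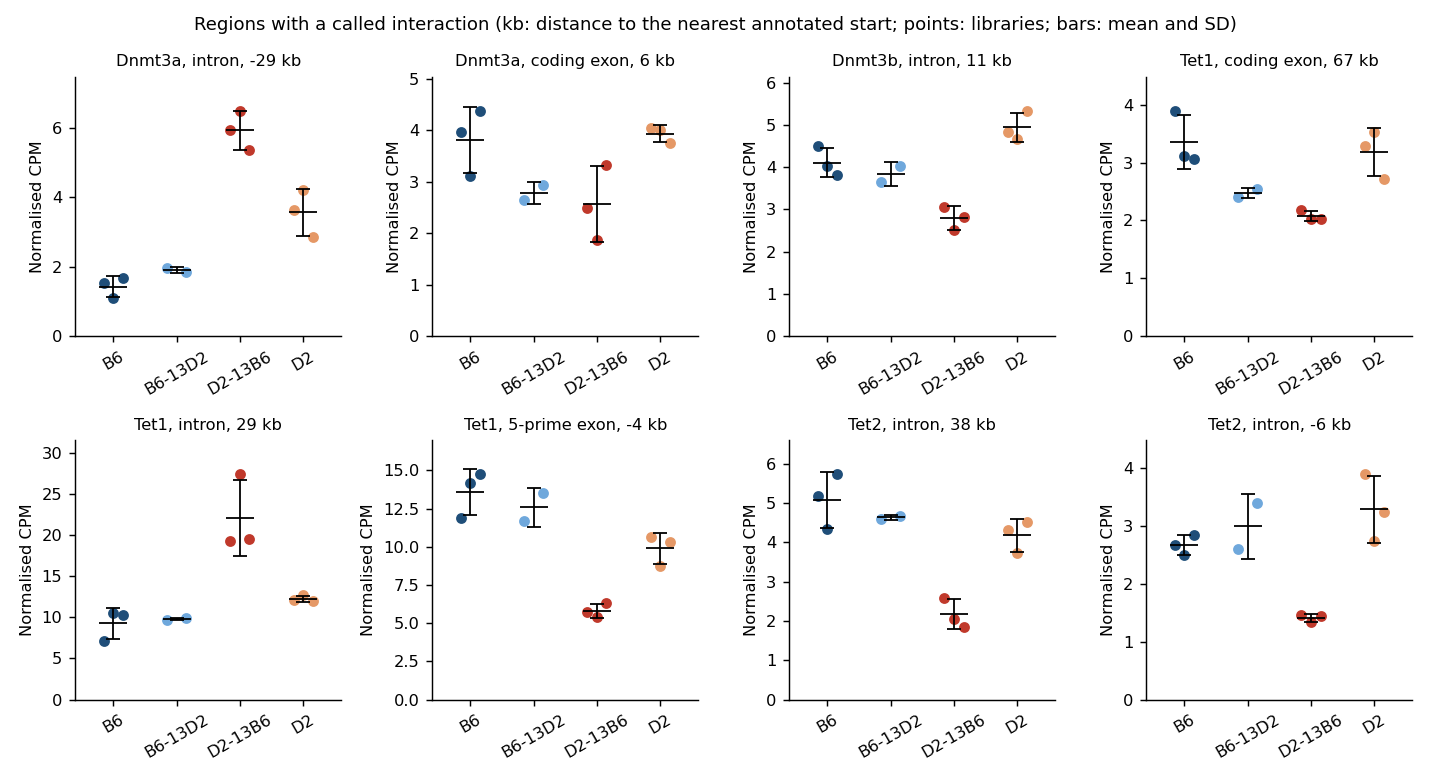
Normalised CPM (vertical axis, from 0) of the 8 regions with a called interaction in the 4 lines (horizontal axis), with points per library and mean and SD; titles give the gene window, the annotation and the distance to the nearest start site. In the Tet2 panels D2-13B6 lies under the other 3 lines, and the Dnmt3a and Tet1 introns have their highest values in D2-13B6.

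By composition, the 12 start site regions of the 7 genes had a median GC content of 54.9% and a median ratio of observed to expected CpG of 0.415, beside 55.2% and 0.579 over all start site regions. The ratio ran from 0.0811 at the nearly closed Tet1 start to 0.719 at Tet2, and was 0.705 at the upstream and 0.349 at the internal start of Dnmt3a. Members without a start site had a median of 0.209, close to the 0.211 of all such regions. Motif letters were searched on both strands in the central 300 bases of every region. GGGCGG (GC box) was found in 5 of the 12 start site members and in 51.6% of all start site regions, and GCGCATGC (NRF1 core) in 2 of 12, those of Dnmt1 and Uhrf1, and in 2.38%. The AP-1 letters TGANTCA occurred in 14.4% of the members and in 13.7% of all regions. Among members without a start site, they were in 3 of the 9 called higher in D2-13B6 than in B6, in 5 of the 38 called lower and in 6 of the 43 not called. Over all regions without a start site the shares were 37.9%, 7.05% and 9.56%. A match of letters is a description and does not show that a factor binds there.

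By the Pearson correlation of log2 CPM over the 11 libraries, the promoter regions most like the main start of each gene were sought among 20156. They were those of Cyp51 (r = 0.992) and Mapre2 (0.993) for Dnmt1, of Npas2 and Dusp12 (both 0.986) for Dnmt3a, of Arl8b (0.993) and Nxpe3 (0.990) for Tet2, and of Olfr823 (0.979) and Dppa3 (0.973) for Tet1. For Dnmt3b they were Dhtkd1 (0.920) and Pum3 (0.911), for Dnmt3l H2-Aa (0.918) and Dync1i1 (0.906), and for Uhrf1 Trim7 (0.978) and Pym1 (0.967). The main start sites of the 7 genes were also compared with each other. For Dnmt3a this was the upstream one and for Tet1 the region of 8812 bases, and other start regions were not compared. Dnmt1 was most like Tet2 (r = 0.909) and Dnmt3a (0.900), while Tet1 was opposed to Dnmt3a (-0.715), Dnmt1 (-0.661) and Tet2 (-0.623). These values are descriptions over libraries of 4 lines that share the strain background and the share of counts at start sites.

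Promoters of 41 other genes of the pathway were read for context, and all had a region. None was called in B6-13D2 against B6 with edgeR (0 at an unadjusted p under 0.05; DESeq2 also called none). In D2-13B6 against B6, 31 were higher and 3 lower, with a median log2 fold change of 0.65 beside 0.48 over all 21126 promoter regions. Over all of those, 11020 were higher and 2385 lower. With total counts the 41 split into 23 higher and 8 lower, and with loess offsets into 18 and 8. Among the 9 demethylation genes, 7 were higher, such as Tet3, the third TET enzyme (1.17, SE 0.17), and Tdg, the glycosylase that removes oxidised methylcytosine (1.22, SE 0.17). Of the 18 genes for maintenance and targeting, 13 were higher and 2 lower, the latter being Prdm14, which represses Dnmt3b in naive cells (-0.89, SE 0.16), and Dppa3, which restrains UHRF1 (-0.46, SE 0.17). All 8 methylation readers but Zbtb38 were higher. Of the 6 one-carbon genes, 4 were higher and Tdh, a threonine dehydrogenase used by mouse embryonic stem cells, was lower (-0.95, SE 0.16). In D2 against B6, 22 of the 41 were higher and 2 lower, beside 7453 and 825 of all 21126 promoter regions. In D2 against D2-13B6, 2 were higher and 8 lower, beside 1217 and 3631 of all, which is near the same shares.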

How the data were processed

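Regions, their annotation and their counts were used as follows. The authors deposited 1 table of whole-number counts per region for 11 libraries, without normalization; per the file headers, duplicate and mitochondrial reads had been removed and alignments sorted. Per the submitters' processing notes, the build was mm10 and the tools included Trimmomatic 0.39, BWA 0.7.5, Picard 2.0.1, MACS 1.4.2, bedtools 2.9.2 and edgeR 3.34.1, with no role given; handling of multiply mapped reads and a transposase shift are not given in the sources used here. Per the labels, each library came from 100000 cells by FAST-ATAC with 150 bp reads. Coordinates are as the table lists them; annotation was GENCODE M21.

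edgeR 4.0.16 (R 4.3.3) was run with TMM, filterByExpr by line, trended dispersion and robust quasi-likelihood on all 11 libraries at once; 246840 regions were tested and 1496 filtered out, with Benjamini-Hochberg adjustment over all tested regions, and called means an adjusted p under 0.05. Normalised CPM use TMM-scaled library sizes; log2 CPM used a prior count of 2. Promoter regions lie within 1000 bp of a protein-coding start. Alternatives were RLE, total counts, no filter, DESeq2 1.42.0, the comparison's libraries alone, a replicate block, a minimum fold of 1.5, leaving out each library, and loess offsets. Libraries of a line differed by more than sampling noise and all were kept. Named regions were all start site regions of the 7 genes, the smallest p per window, and per comparison the 2 called higher and the 2 called lower with the smallest p. Members and gene lists were chosen with earlier results of these data known. Between libraries of a line, counts spread more than counting error alone gives. PCR copies are not independent molecules, and per the file headers duplicate reads had been removed.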

Additional observations from a re-analysis of the deposited data

Results flagged for a closer look

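Listed here are regions where B6-13D2 against B6 differed from D2 against D2-13B6 by the interaction test (edgeR, adjusted over all regions); the congenic strains carry intervals with different end markers, and each is 1 line. The log2 interaction was -1.08 at the Tet2 intron region from 133505965 to 133507073 (adjusted p = 0.0196 by edgeR) and 0.94 at the Tet1 intron region from 62850665 to 62852166 (0.0199). At the Tet1 region from 62901729 to 62903688, upstream of the main start, it was -0.88 (0.0244). It was 1.11 at the Dnmt3a intron region from 3862259 to 3862534 (0.0350) and -1.06 at the Tet2 region from 133549597 to 133550412 (0.0451). The remaining 3 fell outside the rule for named regions and were taken for their call: -1.09 at a Dnmt3a coding exon from 3896911 to 3897704 (0.0297), -1.06 at a Tet1 coding exon from 62812645 to 62813463 (0.0370) and -0.92 at a Dnmt3b intron from 153660487 to 153661248 (0.0457). In the Tet1 exon both congenic lines were low, at 2.48 CPM in B6-13D2 and 2.08 in D2-13B6, against 3.36 in B6 and 3.18 in D2. The means of the Dnmt3a exon had the same form, with 2.79 and 2.57 against 3.82 and 3.94, but the D2-13B6 and B6 libraries overlapped there.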

How the results depend on the processing

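No member was called in B6-13D2 against B6 under any alternative, where 370 to 2875 of all tested regions were. For D2 against D2-13B6 (32 calls), DESeq2 gave 21 and a minimum fold of 1.5 gave 2. Leaving out a library gave 20 to 38, with 20 without D2-13B6 replicate 2 or D2 replicate 1. Over all tested regions (58591 calls) DESeq2 gave 52478, the minimum fold 16970 and leaving out a library 44514 to 68813. For D2 against B6 (13 calls), total counts gave 27, the comparison's libraries alone 26, a minimum fold of 1.5 gave 2, loess offsets 20, and leaving out a library 7 to 22; the lowest counts came without B6 replicate 2, B6 replicate 3 (8) or D2 replicate 3, the highest without D2-13B6 replicate 2 or 3 (21). For D2-13B6 against B6 (55 calls), a minimum fold of 1.5 gave 22 and leaving out a library 46 to 65. Over all tested regions (102971 calls) these gave 48265 and 88675 to 108326. For the interaction (8 calls), RLE gave 5, total counts 17, DESeq2 5, a minimum fold of 1.5 gave 0 (11 at an unadjusted p under 0.05), loess offsets 16, and leaving out a library 0 to 14, a change of over 1.5 times without any library but D2-13B6 replicate 1 (6) or D2 replicate 2 (9); the comparison's libraries alone could not give an interaction. The loess offsets reversed the sign at the Dnmt1 start (-0.068) and the upstream Dnmt3a start (-0.0039) in D2-13B6 against B6. Calls over all tested regions moved too. For D2 against B6 (55588) total counts gave 60417, the comparison's libraries alone 66522, the minimum fold 14629 and loess offsets 56629. Leaving out a library gave 41564 to 63122 there. For the interaction (16142) RLE gave 16225, total counts 19406, DESeq2 12960, the minimum fold 975 and loess offsets 21096. Leaving out a B6, D2-13B6 or D2 library gave 8229 to 29017. The cause of these shifts was not tested.

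Replicate numbers did not pair the libraries, since same-numbered libraries of different lines had correlations of deviations of -0.05 to 0.07 over 15 pairs. With a replicate block the counts were 0, 33, 15, 57 and 5 in the order B6-13D2 against B6, D2 against D2-13B6, D2 against B6, D2-13B6 against B6 and the interaction. Over all tested regions they were 1221, 60628, 57439, 104114 and 14154. Over the named regions' called effects, 791 alternative values kept direction and call, 133 kept direction only and 2 reversed. Weak regions are limited by depth, mostly in B6 and B6-13D2, whose libraries are the shallower ones.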
